A study of Arabidopsis thaliana with 12 samples.

Results

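The 10 genes described here encode proteins that license and start DNA replication in Arabidopsis thaliana: the helicase subunits MCM2 (AT1G44900), MCM3 (AT5G46280), MCM4 (AT2G16440), MCM5 (AT2G07690), MCM6 (AT5G44635) and MCM7 (AT4G02060), the loading factors CDC6 (AT2G29680), CDT1A (AT2G31270) and ORC1A (AT4G14700), and the helicase activator CDC45 (AT3G25100). They were taken by locus, as a set named with earlier results of these data known, from the 33602 loci of a gene count table, and all 10 passed the filter on low counts in every comparison. The table holds RNA-seq counts of 12 libraries from seedling roots, 3 libraries in each of 4 groups. Plants were wild type Col-0 or the mutant myb36-1, and all were sampled 6 days after exposure to light. RNA came either from intact whole roots or from protoplasts passed through fluorescence-activated sorting for the endodermis, the root cell layer that builds the Casparian strip. MYB36 is a transcription factor that promotes the differentiation of this layer. The sources used here name neither the reporter of the sorted cells nor the lesion of the myb36-1 allele. Sorted cells were extracted with a micro version of the kit used for whole roots, so tissue, protoplasting and kit cannot be told apart in a comparison of sorted cells with whole roots.

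Total counts per library were 17721913 to 24274637 in wild-type sorted endodermis, 7280556 to 13427477 in myb36-1 sorted endodermis and 19812171 to 22722091 over both whole-root groups, so the mutant sorted libraries were the shallowest. They also differed most among themselves: Spearman correlations between replicates, across genes, were 0.918 to 0.928 there and 0.974 to 0.983 in the other groups. MYB36 itself was still counted in the mutant, at 130 ± 53.4 CPM (counts scaled to library size with TMM factors; SD, n = 3) in sorted cells against 193.7 ± 66.99 in wild type, and at 18.1 ± 1.36 against 32.6 ± 2.23 in whole roots. Markers of the endodermis (7 genes) summed to 2197 to 3298 CPM in wild-type sorted libraries, 1016 to 1425 in mutant sorted libraries, 560 to 712 in wild-type roots and 101 to 105 in mutant roots. Their members moved in opposite ways in sorted cells: CASP1, CASP5, ESB1 and PER64 fell in the mutant, MYB36 was not called, and SCR, a regulator of endodermal fate, rose from 296 ± 57.4 to 840 ± 158 CPM (SD, n = 3). Markers of the root cap (4 genes) summed to 101 to 139 CPM in wild-type sorted libraries and to 1.89 to 5.08 in mutant sorted libraries, where the root cap regulator SMB was at 0 in at least 1 library. The wild-type sorted libraries also held epidermis and root hair markers (5 genes) at 175 to 208 CPM, against 25.2 to 41.4 in the mutant sorted libraries. Markers of the stele (5 genes) summed to 197 to 247 and 161 to 220 CPM, and those of the cortex (2 genes) to 0.322 to 1.12 and 6.53 to 18.3 CPM. The phloem regulator APL and the cortex marker CO2 were at 0 in at least 1 mutant sorted library, and the xylem regulator VND7 in at least 1 wild-type sorted library. The wild-type and mutant sorted libraries therefore differed in markers of cell types other than the endodermis, and the part of this in any difference below was not tested.

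Licensing prepares each replication origin to fire no more than 1 time per cell cycle. The origin recognition complex, of which ORC1 is the largest subunit, binds the origin, and CDC6 and CDT1 then load the ring of MCM2 to MCM7, the helicase that unwinds DNA in S phase. CDC45 joins the loaded ring together with the GINS complex and turns it into an active helicase. In plants several of these genes are known targets of E2F transcription factors, which the retinoblastoma-related protein RBR1 restrains, and in roots they are used both in the dividing cells of the meristem and in cells that replicate DNA without dividing.

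The sites below show a sequence feature that 9 of the 10 genes share. The letters TTTCCCGC, TTTGGCGC, TTTGCCGC and TTTCGCGC, which are forms of the E2F site, were searched on both strands in the 500 bases before each start codon of the TAIR10.1 reference sequence (RefSeq). Of 27443 coding genes, 2.95% held at least 1 of them, and of the 10 licensing genes all but CDC45 did, each with 1 match. Only these exact letters were searched, so a gene without a match may hold another form of the site. Each site is written 5′ to 3′ in the direction of its gene, with 10 bases on each side and the matched letters in capitals. Coordinates below are those of the whole printed stretch, flanks included. GCGGGAAA and GCGCCAAA are matches read on the opposite strand.
MCM2: ggcgccaataTTTCCCGCctaatcgacg
MCM3: gaaatcaaacGCGCCAAAcaagcgcgta
MCM4: agtaataatgGCGCCAAAatcaagtgaa
MCM5: ggcccatcagTTTCCCGCcacattgttc
MCM6: atactttttaGCGGGAAAatgttagagg
MCM7: ctataatactTTTCCCGCctaaactcat
CDC6: tccattgctaTTTCCCGCtacttccatt
CDT1A: gtaggattgcGCGCCAAAgacctaaata
ORC1A: cgtgcaaacaTTTCCCGCcaaatttctc

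MCM2, MCM5, MCM6, MCM7, CDC6 and ORC1A carried the form TTTCCCGC, and MCM3, MCM4 and CDT1A the form TTTGGCGC. The ORC1A match (within chr4:8422150-8422177, plus strand) was the nearest to its start codon, with 68 bases between, and the MCM3 match (within chr5:18773859-18773886, minus strand) the farthest, with 262. The MCM2 stretch lay at chr1:16970190-16970217 on the plus strand and the MCM5 stretch at chr2:3527502-3527529 on the minus strand. The MCM4 stretch lay at chr2:7130747-7130774 and the MCM6 stretch at chr5:18010696-18010723, both on the minus strand. In MCM7 (chr4:901356-901383), CDC6 (chr2:12689394-12689421) and CDT1A (chr2:13328907-13328934), all on the plus strand, the match fell inside the annotated transcribed region, ahead of the start codon. The other 6 matches lay upstream of the annotated gene start, though the 3′ flanks printed for MCM2 and ORC1A run past it. In the 300 bases before the gene start, 6 of the 10 genes and 1.57% of the 27443 coding genes held a match. A match of letters is a description of the sequence, and binding was not measured.

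Among the helicase genes of sorted endodermis, MCM5 was the 1 called different between the genotypes, and it was not tested against the other helicase genes. MCM5 counted 39.0, 37.5 and 32.0 CPM in wild-type replicates 1, 2 and 3 and 58.0, 115 and 81.7 CPM in myb36-1 replicates 1, 2 and 3. All 3 mutant libraries were above all 3 wild-type libraries, as was so for 22% of the 18318 genes tested, and 15.6% of the 18318 were called higher. The rise was 2.39-fold, or 1.26 as a log2 change (SE 0.27), with an adjusted p of 0.012 in the quasi-likelihood test of edgeR. The call rests on the full set of wild-type libraries, since the adjusted p was 0.0546, 0.0609 and 0.061 without wild-type replicate 1, 2 and 3. In bulk RNA, more cells that express a gene and more RNA of it per cell cannot be told apart.

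The other MCM genes had higher means in the mutant but their libraries overlapped. MCM2 counted 54.8, 56.2 and 49.1 CPM in wild-type and 34.7, 89.4 and 78.6 CPM in mutant sorted cells. MCM3 counted 63.4, 67.8 and 54.5 CPM against 49.3, 103 and 109.8 CPM. MCM4 counted 48.2, 53.6 and 41.0 CPM against 43.9, 95.5 and 84.0 CPM. In all 3 genes mutant replicate 1 lay near or below the wild-type libraries and mutant replicates 2 and 3 lay above them. Their log2 changes were 0.37 (SE 0.33, edgeR adjusted p = 0.45), 0.52 (SE 0.31, 0.237) and 0.67 (SE 0.30, 0.132). Without mutant replicate 1 they were called higher, with edgeR adjusted p = 0.022, 0.0119 and 0.00887. MCM6, the least abundant subunit per length, counted 23.0, 27.0 and 22.8 CPM against 22.7, 42.6 and 30.0 CPM. MCM7, the subunit gene also named PROLIFERA, counted 93.9, 105 and 84.1 CPM against 70.3, 133.9 and 85.5 CPM. Mutant replicate 2 alone stood above wild type for MCM7, and the log2 differences were 0.41 for MCM6 (SE 0.28, edgeR adjusted p = 0.298) and 0.06 for MCM7 (SE 0.27, 0.893).

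Of the loading factors, CDC6 and CDT1A had lower means in the mutant sorted cells. CDC6, the ATPase that joins ORC at the origin, counted 16.8, 17.0 and 11.7 CPM in wild type and 3.80, 8.43 and 11.3 CPM in the mutant. All mutant values were below all wild-type values, with mutant replicate 3 just under wild-type replicate 3, and 27.3% of all genes tested were likewise lower without overlap. CDT1A, which brings the MCM ring to the origin, counted 83.5, 97.1 and 56.6 CPM against 36.6, 62.5 and 44.0 CPM. Here mutant replicate 2 exceeded wild-type replicate 3. The log2 differences, -0.93 for CDC6 (SE 0.44, edgeR adjusted p = 0.145) and -0.70 for CDT1A (SE 0.29, 0.102), did not pass the threshold. In 1 fit of all 12 libraries both passed, with edgeR adjusted p = 0.0321 and 0.0177, and CDT1A also passed without mutant replicate 2 (0.0446). The fit of all 12 uses 1 spread per gene for all groups, so its p-values do not measure the spread of sorted cells alone. The median coefficient of variation, over genes of at least 5 CPM, was 33.1% in mutant sorted libraries and 9.78% to 13.8% in the other groups.

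ORC1A and CDC45 were counted sparsely. ORC1A counted 6.33, 6.50 and 4.57 CPM in wild-type and 4.15, 12.45 and 10.01 CPM in mutant sorted cells, and CDC45 counted 5.20, 5.74 and 5.18 CPM against 4.41, 17.0 and 2.90 CPM. Mutant replicate 2 alone was high for CDC45, and mutant replicate 3 rested on 20 reads. The log2 differences were 0.63 for ORC1A (SE 0.48, edgeR adjusted p = 0.361) and 0.62 for CDC45 (SE 0.65, 0.516).

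In all, 1 of the 10 genes was called higher and 0 lower in mutant sorted endodermis, where 15.6% of the 18318 genes tested were called higher and 12.9% lower. The count of 1 is no larger a share than that background. The median log2 change was 0.47 over the 10 genes and -0.05 over all genes.

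**Figure D1:**
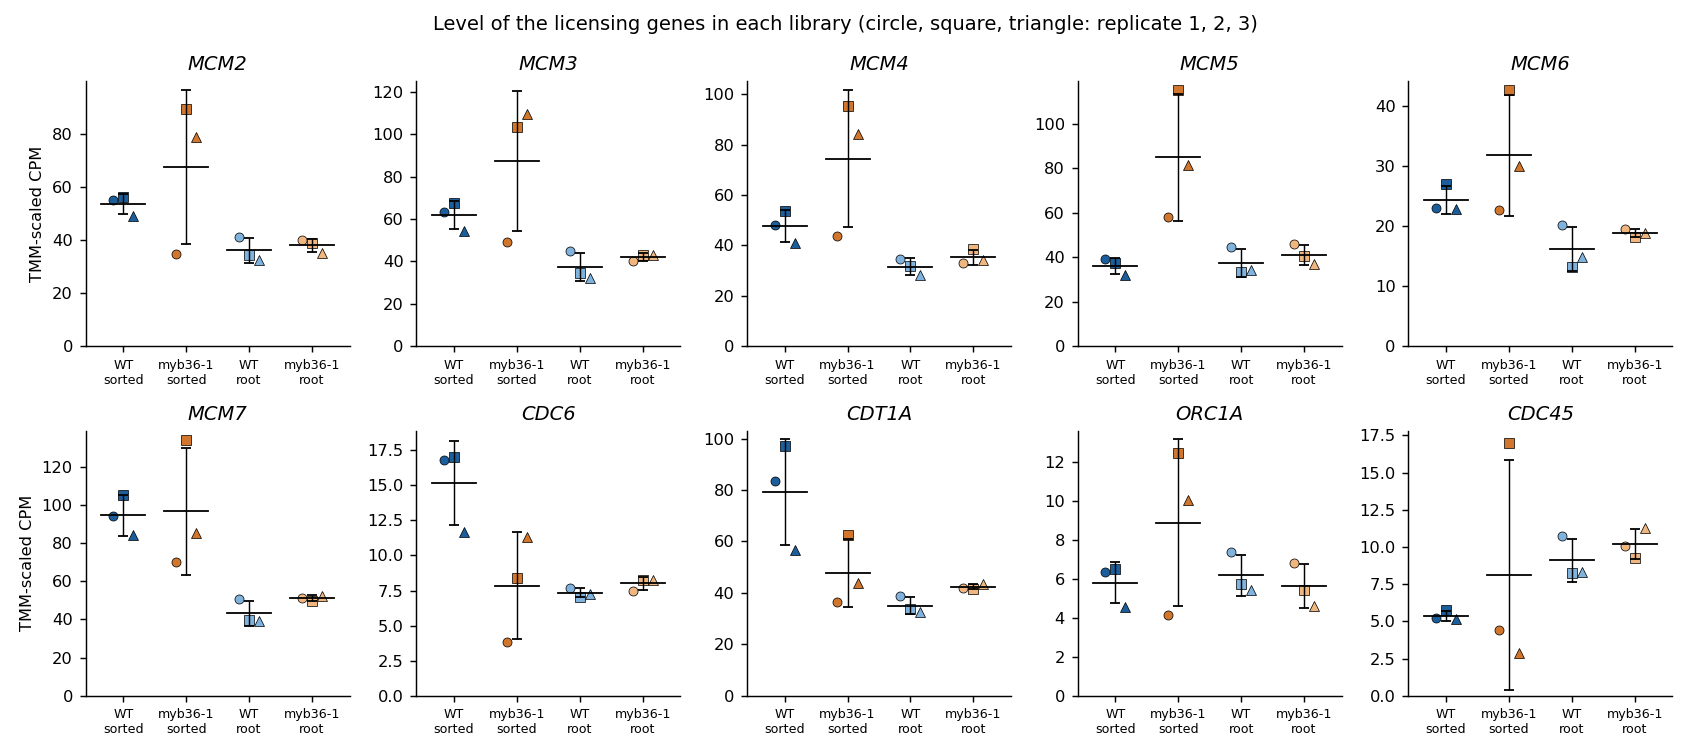
Level of each licensing gene (TMM-scaled CPM, y axis from 0, scaled per gene) in the 12 libraries; points are single libraries, the horizontal line is the group mean and the bar its SD (n = 3). MCM5 in the mutant sorted libraries, at 58.0 to 115 CPM, lies above its 32.0 to 39.0 CPM in wild-type sorted libraries. The lowest library of its group is mutant sorted replicate 1 (circle) for 9 of the 10 genes and wild-type sorted replicate 3 (triangle) for all 10.

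The spread among the mutant sorted libraries limited these tests. Their median coefficient of variation was 37.2% over the 10 genes, against 11.1% in wild-type sorted cells, 15.5% in wild-type roots and 6.15% in mutant roots. Over the 14774 genes with a mean of at least 5 CPM it was 33.1% in the mutant sorted libraries and 13.8%, 10.6% and 9.78% in the other 3 groups. Mutant replicate 1 was the lowest of its group for 9 of the 10 licensing genes, against 38.3% of all genes, and replicate 2 was the highest for 8, against 34.4%. The wild-type sorted libraries were ordered as uniformly. There replicate 3 was the lowest for all 10 genes, against 33.1% of all genes, and replicate 2 the highest for 9, against 35.7%. The mean level of MCM2 to MCM7 per kilobase of exon was 16.4, 33.9 and 27.2 CPM in mutant replicates 1, 2 and 3. The summed level of the meristem and stem cell niche markers PLT1, PLT2, PLT3 and WOX5 in those libraries was 108, 229 and 266 CPM, so replicate 1 was lowest in both. In wild-type sorted cells the MCM mean was 18.8, 20.3 and 16.5 CPM per kilobase and the marker sum 91.0, 117 and 116 CPM. Of the 4 markers, PLT3 and WOX5 were called higher in mutant sorted cells, WOX5 with a log2 change of 4.51 (SE 0.67) and an edgeR adjusted p of 0.00276. WOX5 is the defining marker of the quiescent centre, and its mean level was 8.92 CPM in mutant and 0.386 CPM in wild-type sorted cells. The part of these markers in the MCM levels was not tested.

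**Figure D2:**
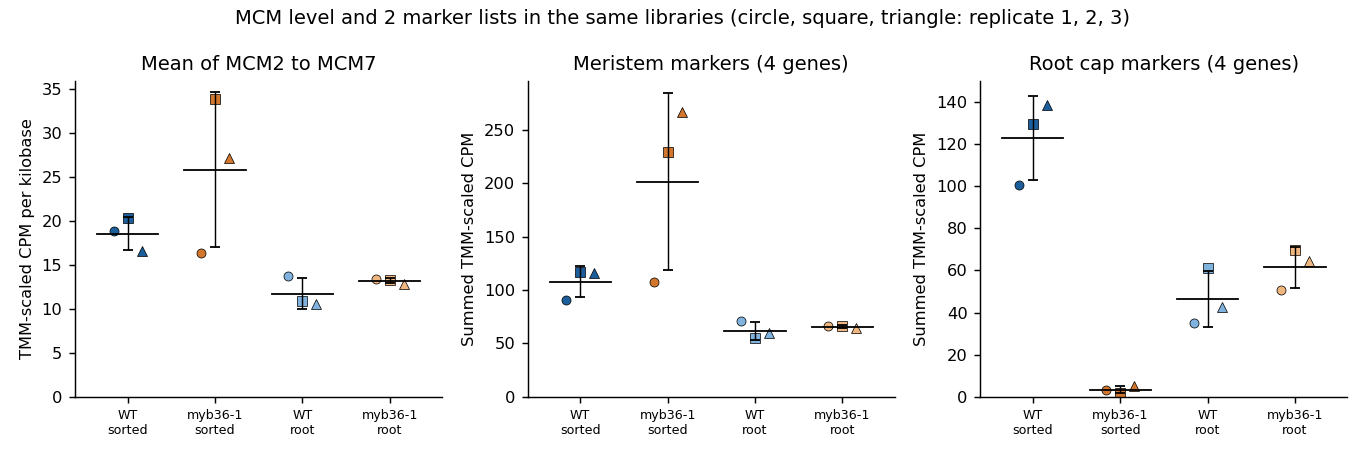
Mean level of MCM2 to MCM7 per kilobase of exon (left), summed level of 4 meristem and stem cell niche markers (middle) and of 4 root cap markers (right), in TMM-scaled CPM, in the 12 libraries; points are libraries, lines group means and bars SD (n = 3). In mutant sorted cells replicate 1 is lowest for both the MCM mean (16.4) and the meristem markers (108), and the root cap markers are between 1.89 and 5.08 CPM in all 3 libraries.

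Shares within a library do not depend on how libraries are scaled, and they showed the make-up of the MCM transcripts. MCM5 made up 12.8%, 11.5% and 12.0% of the summed MCM2 to MCM7 level per kilobase in wild-type sorted replicates 1, 2 and 3. It made up 21.9%, 21.0% and 18.6% in the mutant sorted replicates, 20.101%, 19.060% and 20.080% in wild-type roots, and 21.2%, 18.8% and 17.8% in mutant roots. The wild-type sorted libraries thus stood apart from the other 9 libraries with a low MCM5 share. How often shares within other gene sets separate in this way was not computed. By level, 35% of 19747 genes were higher and 38.6% lower without overlap in wild-type sorted cells than in wild-type roots. MCM7 was their mirror, at 31.4%, 32.7% and 32.0% in wild-type sorted libraries and 19.8% to 27.0%, 22.9% to 23.5% and 23.6% to 25.7% in mutant sorted, wild-type root and mutant root libraries. A rise of 1 share lowers the others, so these values are not independent of each other. MCM6 had the lowest share in each group, at means of 7.14% to 8.16%. MCM2, MCM3 and MCM4 had group means between 13.3% and 18.5%. With 3 libraries against 3, an exact permutation test cannot give a p below 0.1, so no share was tested.

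**Figure D3:**
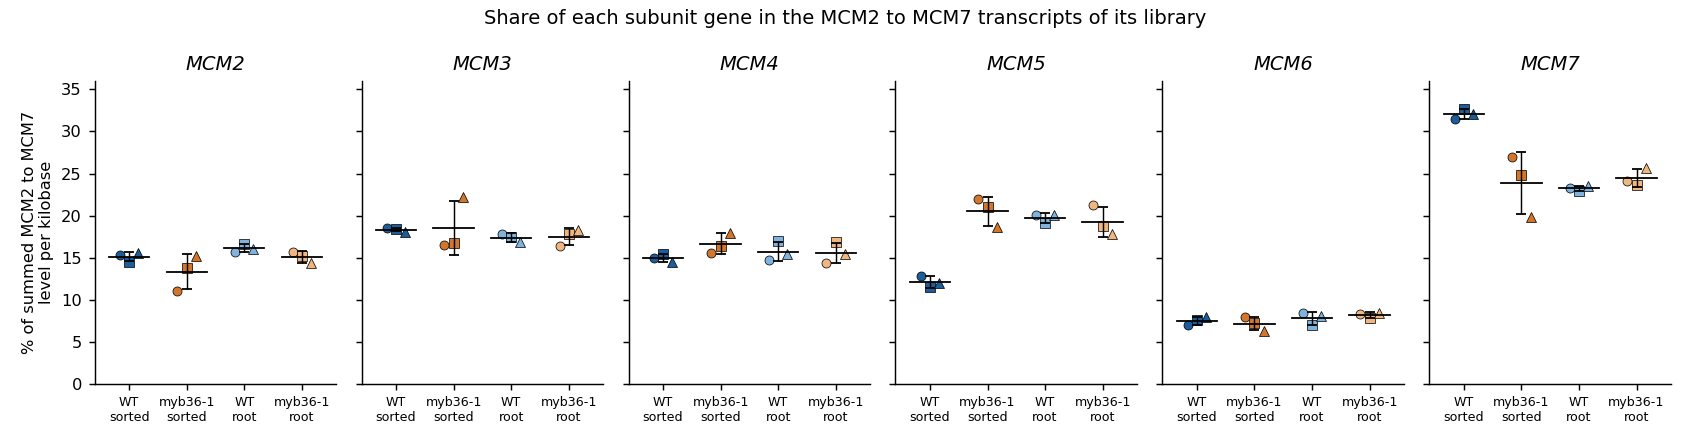
Share of each subunit gene in the summed MCM2 to MCM7 level per kilobase of exon of its library (percent, y axis from 0); points are libraries, lines group means and bars SD (n = 3). MCM5 is at 11.5% to 12.8% in wild-type sorted libraries and at 17.8% to 21.9% in the other 9 libraries, while MCM7 is at 31.4% to 32.7% against 19.8% to 27.0%.

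The loading factors were set against the MCM genes of the same library in the same way. The level of CDT1A per kilobase was 2.04, 2.20 and 1.57 times the mean MCM level in wild-type sorted replicates and 1.03, 0.847 and 0.743 times in mutant sorted replicates. Whole roots lay between, at 1.30 to 1.43 in wild type and 1.44 to 1.56 in the mutant, without overlap with either sorted group. CDC6 was at 0.388, 0.364 and 0.307 times the mean MCM level in wild-type sorted replicates and at 0.101, 0.108 and 0.181 times in mutant sorted replicates. In whole roots it was at 0.243 to 0.300 in wild type and 0.242 to 0.279 in the mutant. Both loading factors were lower relative to the MCM genes in each mutant sorted library than in any other library. How many of all genes do so as a ratio to the MCM mean was not computed. By level alone, 27.3% of 18318 genes were lower without overlap in mutant than in wild-type sorted cells. CDC45 gave 0.125 ± 0.00834 and 0.126 ± 0.0854 (SD, n = 3) in the wild-type and mutant sorted groups and 0.335 ± 0.00616 and 0.334 ± 0.0402 in the whole-root groups. ORC1A gave 0.123 ± 0.0123 and 0.130 ± 0.0261 in sorted cells and 0.208 ± 0.00407 and 0.168 ± 0.0303 in whole roots.

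**Figure D4:**
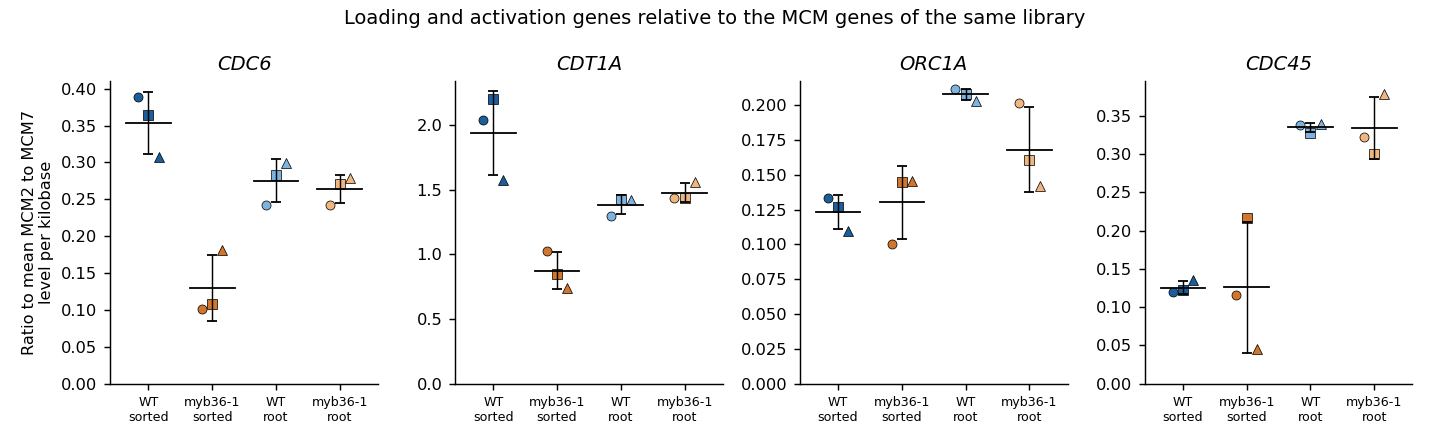
Level per kilobase of CDC6, CDT1A, ORC1A and CDC45 divided by the mean level of MCM2 to MCM7 in the same library (y axis from 0, scaled per gene); points are libraries, lines group means and bars SD (n = 3). CDT1A is at 1.57 to 2.20 in wild-type and 0.743 to 1.03 in mutant sorted libraries, with whole roots between, and CDC6 is lowest in the mutant sorted libraries.

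In whole roots 0 of the 10 genes were called higher or lower, with limma-voom, DESeq2 and edgeR alike, where edgeR called 3.25% of 19624 genes higher and 2.85% lower in the mutant. MCM5 counted 44.6, 33.4 and 34.2 CPM in wild-type and 45.9, 40.4 and 36.8 CPM in mutant roots, and the groups overlapped. CDT1A counted 38.9, 33.7 and 32.6 CPM against 41.9, 41.6 and 43.6 CPM. All 3 mutant libraries were above wild type for CDT1A, as they were for 12.3% of all genes tested. It had the largest log2 difference of the 10 genes, 0.28 (SE 0.11, edgeR adjusted p = 0.186), and the 1 unadjusted p under 0.05. CDC6 counted 7.68, 7.07 and 7.28 CPM against 7.48, 8.28 and 8.26 CPM, with overlap.

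MCM2 counted 41.2, 34.5 and 32.4 CPM in wild-type and 40.1, 38.6 and 35.2 CPM in mutant roots. MCM3 counted 44.7, 34.4 and 32.3 CPM against 39.96, 43.1 and 42.9 CPM. MCM4 counted 34.7, 31.7 and 28.0 CPM against 33.04, 38.4 and 34.2 CPM. Wild-type root replicate 1 was the highest of its group for all 10 licensing genes, and 38.5% of all genes had their highest value there. MCM6 counted 20.2, 13.2 and 14.9 CPM against 19.6, 18.1 and 18.8 CPM, and MCM7 counted 50.9, 39.5 and 39.4 CPM against 51.3, 49.8 and 52.5 CPM. ORC1A counted 7.35, 5.71 and 5.43 CPM against 6.83, 5.41 and 4.62 CPM, and CDC45 counted 10.8, 8.24 and 8.29 CPM against 10.04, 9.27 and 11.28 CPM. The groups overlapped for each of these 7 genes. The log2 differences of the 10 genes ran from -0.13 (ORC1A) to 0.28 (CDT1A), with a median of 0.17 against 0.01 over all genes, and SEs of 0.11 to 0.20.

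A fit with a genotype by tissue term asked whether the mutant differed from wild type by another amount in sorted endodermis than in whole root. This fit used 1 spread per gene for all groups, although the mutant sorted libraries varied more than the others. Of the 10 genes, 1 was called with a higher and 1 with a lower effect in sorted cells, where 13.8% and 14.6% of 20302 genes were so called. MCM5 had the higher effect, a log2 difference of 1.10 (SE 0.32) with an edgeR adjusted p of 0.0225. CDT1A had the lower effect, by -1.004 (SE 0.31, adjusted p = 0.0308). CDC6 was as far from 0 at -1.09 but with a larger error (SE 0.47, adjusted p = 0.1). Both calls were near the threshold: that of MCM5 was lost when wild-type sorted replicate 3, wild-type root replicate 1 or mutant root replicate 2 or 3 was left out (edgeR adjusted p = 0.0551 to 0.065). That of CDT1A was lost when libraries were thinned to 1 depth (0.0661), and without wild-type sorted replicate 1 or 2, wild-type root replicate 2 or 3 or any mutant root replicate (0.0581 to 0.0833).

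Within wild type, 7 of the 10 genes were higher in sorted endodermis than in whole roots and 1 was lower, where 33.4% and 35.4% of 19747 genes were called. CDT1A, MCM7 and CDC6 had the largest differences, 1.20 (SE 0.19), 1.15 (SE 0.15) and 1.07 (SE 0.19) on the log2 scale, with edgeR adjusted p = 0.000392, 9.35e-05 and 0.000626. MCM3 rose by 0.76, MCM4 by 0.62, MCM6 by 0.62 and MCM2 by 0.59, with edgeR adjusted p of 0.00186, 0.00401, 0.0124 and 0.00345. MCM5, at -0.02 (adjusted p = 0.905), was the 1 helicase gene without a call. ORC1A was at -0.06 (0.827), and CDC45 was lower in sorted cells, by -0.73 (SE 0.19, edgeR adjusted p = 0.00668). The call of MCM6 was lost without wild-type root replicate 2 or 3 (0.0513 and 0.0553), and those of MCM2, MCM4 and CDC45 in 1 fit of all 12 libraries (0.0932, 0.0535 and 0.205). The median log2 difference was 0.62 over the 10 genes and -0.01 over all genes. The meristem and stem cell niche markers summed to 54.9 to 70.9 CPM in wild-type roots, below their 91.0 to 117 CPM in wild-type sorted cells. The 4 markers did not move together: 2 were called higher and 1 lower in sorted cells, with log2 differences from -2.44 to 2.06. Their part in the differences of the licensing genes was not tested.

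Within the mutant, 4 of the 10 genes were called higher in sorted endodermis than in whole roots and 0 lower, where 12.3% and 17.3% of 19347 genes were called. They were all helicase genes: MCM4 by 1.10 (SE 0.30), MCM3 by 1.07 (SE 0.30), MCM5 by 1.07 (SE 0.27) and MCM7 by 0.93 (SE 0.25) on the log2 scale, with edgeR adjusted p of 0.0286, 0.0339, 0.0223 and 0.0303. MCM2 was at 0.85 (SE 0.34, adjusted p = 0.102) and MCM6 at 0.77 (SE 0.27, 0.0676). CDC6 was at -0.02, CDT1A at 0.19, ORC1A at 0.67 and CDC45 at -0.32, none called. The 4 calls were all lost without any 1 of the mutant root replicates (edgeR adjusted p = 0.0696 to 0.128), those of MCM3 and MCM4 also without mutant sorted replicate 2 or 3 (0.0532 to 0.0859), and those of MCM3 and MCM7 with no filter on low counts (0.0512 and 0.0501). The meristem markers summed to 64.5 to 66.4 CPM in mutant roots against 108 to 266 CPM in mutant sorted cells. The comparisons within a tissue and within a genotype share libraries, so their values are given side by side only.

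**Figure D5:**
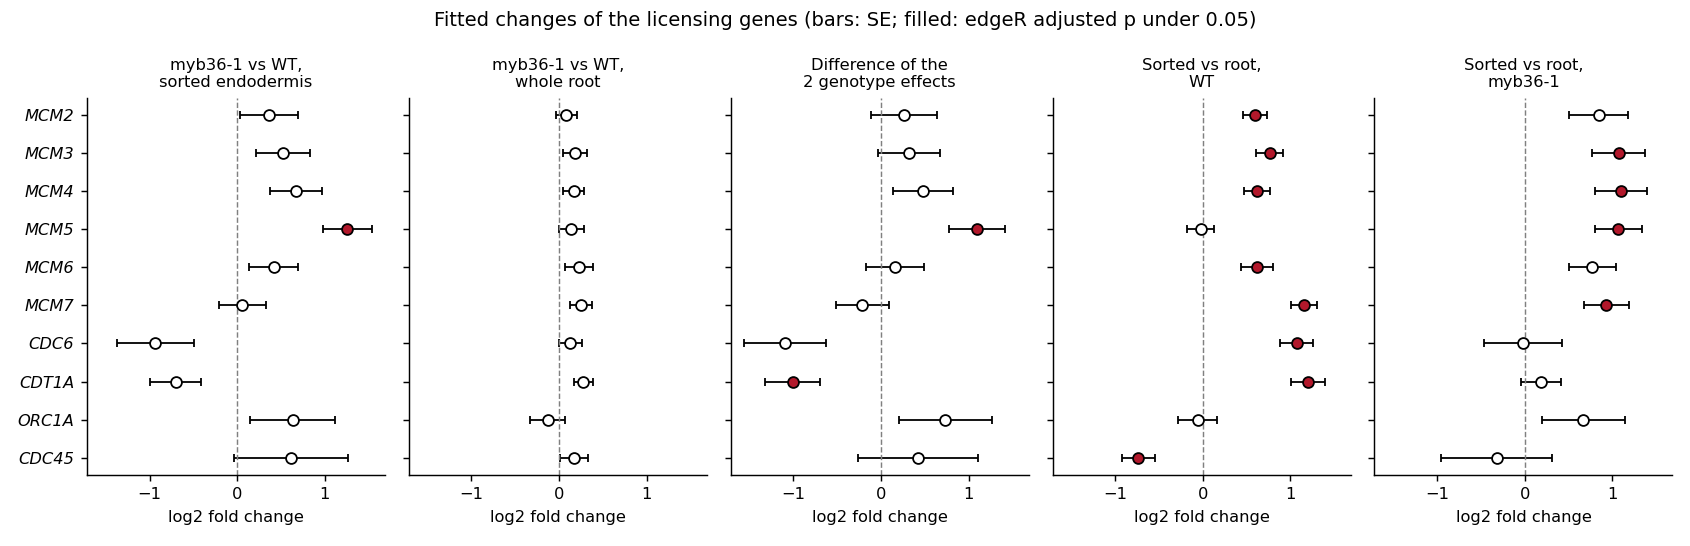
Fitted log2 fold change of the 10 genes (points) with its SE (bars) in the 5 comparisons; filled points passed an edgeR adjusted p of 0.05. MCM5 is called in sorted cells (1.26) and in the difference of the 2 genotype effects (1.10), CDT1A in that difference (-1.004), none in whole root, and 8 genes between the tissues of wild type.

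The order of mean levels per length differed between the groups, though many of the genes lay within each other's spread. CDT1A (36.3 ± 9.45 CPM per kilobase; SD, n = 3) and MCM7 (35.7 ± 4.01) were the highest in wild-type sorted endodermis and did not differ beyond their spread. MCM3 (20.4 ± 2.24), MCM2 (16.8 ± 1.18), MCM4 (16.6 ± 2.20) and MCM5 (13.4 ± 1.36) followed, with MCM2 and MCM4 within each other's spread. MCM6 (8.32 ± 0.808) and CDC6 (6.58 ± 1.31) were lower, and CDC45 (2.32 ± 0.137) and ORC1A (2.29 ± 0.422) lowest. In the mutant sorted cells the order began with MCM7 (36.5 ± 12.6), MCM5 (31.6 ± 10.7), MCM3 (28.8 ± 10.9) and MCM4 (26.0 ± 9.46), with CDT1A at 21.9 ± 6.12. The spread of those 5 overlapped, also with that of MCM2 at 21.2 ± 9.11, and MCM6 was at 10.9 ± 3.46. CDC45 was at 3.49 ± 3.33, ORC1A at 3.51 ± 1.69 and CDC6 at 3.41 ± 1.65, and these 3 could not be ordered. In wild-type roots MCM7 (16.3 ± 2.49) and CDT1A (16.1 ± 1.53) were again within each other's spread, followed by MCM5 (13.9 ± 2.33), MCM3 (12.2 ± 2.18), MCM2 (11.3 ± 1.44) and MCM4 (10.99 ± 1.18), whose spreads overlapped. MCM6 (5.51 ± 1.25), CDC45 (3.92 ± 0.622), CDC6 (3.19 ± 0.135) and ORC1A (2.44 ± 0.411) were lowest there. In mutant roots CDT1A (19.5 ± 0.489) and MCM7 (19.3 ± 0.503) were highest, within each other's spread, and ORC1A (2.22 ± 0.443) was lowest.

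The paralogues of the loading factors did not carry a call between the genotypes. ORC1B, the second ORC1 gene, was at 45.9 ± 14.1 CPM (SD, n = 3) in wild-type and 35.7 ± 12.9 CPM in mutant sorted cells. Per kilobase its level was 16.2 ± 4.95 CPM in wild-type sorted cells, where ORC1A was at 2.29 ± 0.422. CDT1B was at 27.2 ± 6.29 against 21.7 ± 0.699 CPM and CDC6B (AT1G07270) at 3.79 ± 0.435 against 4.04 ± 4.41 CPM. Of the 8 other licensing factors (ORC1B, ORC2 to ORC6, CDC6B and CDT1B), 0 were called between genotypes in either tissue, where 15.6% of all genes were called higher and 12.9% lower in sorted cells, and 3.25% and 2.85% in whole roots. In sorted cells 0 of them had an unadjusted edgeR p under 0.05, and likewise in whole roots. Within wild type, ORC1B (0.98), ORC3 (0.80), ORC6 (0.85), CDC6B (1.04) and CDT1B (0.97) were called higher in sorted cells on the log2 scale and ORC5 (-0.55) lower, with edgeR adjusted p of 0.0012 to 0.0146.

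In the lists of other replication and cell cycle genes, called genes in mutant sorted endodermis stand beside the 15.6% of all genes called higher and 12.9% called lower there. Of the 8 genes for helicase activation and MCM relatives (GINS subunits, MCM10, ETG1, MCM8 and MCM9), 0 were called by edgeR and 2 had an unadjusted p under 0.05. Of 16 fork enzymes 3 rose: POLA1, the catalytic subunit of the priming polymerase, by 1.05, and POLD2, a polymerase delta subunit, and RFC1, the large subunit of the clamp loader, each by 1.83 on the log2 scale. Of 8 genes for nucleotide supply and chromatin assembly, the large ribonucleotide reductase gene RNR1 rose by 1.22 and the small subunit gene RNR2A changed by -1.34. Of 9 E2F and RBR regulators, E2FA, an activator, rose by 0.97 and RBR1 by 0.93. Of 18 mitosis genes, the cytokinesis syntaxin KNOLLE rose by 2.09, the microtubule bundler MAP65-3 by 1.20 and the mitotic kinase CDKB2;2 by 1.00. The edgeR adjusted p of these calls ran from 0.00434 (RFC1) to 0.0487 (MAP65-3). POLA1, POLD2, RFC1, RNR2A, E2FA, RBR1, KNOLLE and CDKB2;2 overlap an antisense gene. The median log2 change was -0.11 for the other licensing factors, 0.40 for helicase activation, 0.48 for the fork enzymes, -0.11 for nucleotide supply, 0.43 for the regulators and 0.24 for mitosis. In whole roots, where 3.25% of all genes were called higher and 2.85% lower, 0 genes of these 6 lists were called between genotypes by edgeR, and 2, TK1A and CYCB1;1, had an unadjusted p under 0.05.

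The genotype by tissue term was called for RFC1 (1.72), RBR1 (0.99), DPB (0.95), KNOLLE (2.19) and RNR2A (-1.15) among these lists, on the log2 scale, with edgeR adjusted p of 0.00171 to 0.0211. Higher calls were 1 of 16 fork enzymes, 2 of 9 regulators and 1 of 18 mitosis genes. The lower call was 1 of 8 nucleotide supply genes, and the other licensing factors and helicase activation had 0. Of all 20302 genes, 13.8% were called higher and 14.6% lower by this term. DPB encodes a dimer partner of E2F proteins. In wild type, sorted cells against whole roots gave 2 higher and 2 lower calls of 8 for helicase activation, with PSF1 (0.61) and ETG1 (0.65) higher and SLD5 (-1.70) and MCM8 (-0.85) lower. SLD5 and PSF1 are both GINS subunits, the partners of CDC45. Against 33.4% of all genes higher and 35.4% lower, the fork enzymes had 6 higher and 3 lower calls of 16, nucleotide supply 4 and 1 of 8, the E2F and RBR regulators 6 and 1 of 9, and mitosis 12 and 1 of 18. RBR1 was the lower call among the regulators (-0.38), and the mutant gave RBR1 a higher call (0.60) in the same tissue comparison.

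Likeness of profile was measured as the Pearson correlation over the 12 libraries, in log2 CPM, with the mean of the standardised MCM2 to MCM7 profiles, among 14764 other genes with a mean of at least 5 CPM. The 5 most alike were PUM24 (0.990), AT2G25270 (0.987), UBP21 (0.987), AT2G31410 (0.984) and GSL12 (0.982). PUM24, a Pumilio-type RNA-binding protein, had mean levels of 67.2 and 92.0 CPM in wild-type and mutant sorted cells and 46.7 and 49.4 CPM in the roots. Of the genes in the licensing set, each MCM gene was compared with the mean of the other MCM genes, itself left out. MCM4 (0.979), MCM3 (0.970), MCM6 (0.961) and MCM2 (0.938) were close to that mean, and MCM7 (0.866) and MCM5 (0.764) were less so. ORC1A (0.750), CDT1A (0.563), CDC6 (0.350) and CDC45 (-0.135) were compared with the mean of MCM2 to MCM7. Ranked among the 14764 other genes, MCM4, MCM3, MCM6, MCM2, MCM7 and MCM5 would stand at 11, 24, 33, 88, 429 and 1118. ORC1A, CDT1A, CDC6 and CDC45 would stand at 1210, 2749, 4363 and 7851, so many other genes were as close. The points share 4 groups and the library depths, and no p is given.

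The authors' deposited table of FPKM (fragments scaled by transcript length and library size) gave the same direction in sorted cells for the genes it tested. MCM5 was at 14.4 FPKM in wild type and 38.5 in the mutant in the authors' deposited table, where its test is marked as failed, as are those of MCM2 and CDC6. CDC6 was at 9.20 and 4.52 FPKM in the authors' deposited table. For CDT1A the authors' deposited table has 40.7 and 28.1 FPKM with a q-value of 0.407, and the lowest q-value of the 7 genes tested there is that of MCM4, 0.233. In whole roots the q-values in the authors' deposited table are 0.935 for CDT1A and 0.977 for MCM7 and 1.0 for 7 others, and the test of MCM5 is marked as failed.

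Some of these counts could include reads of a neighbour. ORC1A overlaps the antisense gene AT4G14710 by 94 bases of exon, CDC6 overlaps AT2G29679 by 123 and MCM7 overlaps AT4G02050 by 21. The libraries were strand-specific, per the labels' protocols, but the sources used here do not say whether counting used the strand, so reads of these pairs may not have been told apart. No stretch of at least 50 exon bases of the 10 genes recurred elsewhere in the genome at 95% identity or more.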

How the data were processed

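The files of the series hold raw counts per gene, which the authors deposited for all 12 libraries, and tables of FPKM with q-values per comparison, also from the authors' deposited files. Per the submitters' processing notes, TopHat2, SAMtools, Cufflinks, Cuffdiff and HTSeq were used with build TAIR10; those notes as held here give no versions, roles or strand setting. The members and gene lists were chosen with earlier results of these data known. Counts were tested in edgeR 4.0.16 (R 4.3.3) with TMM factors, the default expression filter and the quasi-likelihood F-test, on the libraries of each comparison, with Benjamini-Hochberg adjustment over all genes and a threshold of 0.05. The fit was tested on simulated data. SE is the log2 change over the square root of F. Levels are CPM with TMM factors over all 12 libraries. A count of 0 allows up to 3 reads per library, 0.122 to 0.435 CPM, for counting error only. Lengths, coordinates and sites came from RefSeq TAIR10.1, and shared exon sequence was searched with blastn 2.17.0. Alternatives used limma 3.58.1 voom, DESeq2 1.42.0, RLE factors, no filter, a replicate block, thinning to 7280556 counts, 1 fit of all libraries and leaving out each library. All 10 members were named, other list genes if called, and the 5 genes most alike. The labels call the replicates biological without naming plants or days; p-values measure the spread between these samples, which may be partly technical. Replicate pairs differed by more than sampling noise, with a chi-square per gene of 11.6 to 99.2. The tables of normalized counts were not used here.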

Additional observations from a re-analysis of the deposited data

Results flagged for a closer look

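MCM5 and CDT1A drew attention because the effect of the genotype differed between sorted endodermis and whole root in a test of the difference itself. Of the 10 genes, 1 was called higher and 1 lower in that test, where 13.8% and 14.6% of 20302 genes were so called. Neither count is a larger share than that background. The effect on MCM5 was 1.1 higher in sorted cells on the log2 scale (edgeR adjusted p = 0.0225, and 0.00191 to 0.065 over its 18 alternatives), with all 3 mutant sorted libraries above all 3 wild-type ones, as for 22% of all genes tested. The effect on CDT1A differed by -1 (edgeR adjusted p = 0.0308, and 0.00521 to 0.0833 over its 18 alternatives), and all 3 mutant libraries were above wild type in whole root, as for 12.3% of all genes tested, while the sorted groups overlapped. Marker levels of the root cap and epidermis also differed between the sorted groups, and their part was not tested.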

How the results depend on the processing

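Of 700 values of the 10 genes under other settings, 624 kept their direction and their side of the threshold, 39 fell below it, 19 passed it and 18 changed sign, and none of these 18 was called with either setting. In 1 fit of all 12 libraries the genes called moved to 9251 for mutant against wild type in sorted endodermis, 142 in whole root and 9057 for the tissues of the mutant, against 5225, 1197 and 5727, and the members called to 4 in sorted endodermis (1 before) and 5 for the tissues of wild type (8 before). Thinning left 1 member with a called difference of genotype effects (2 before), and no low-count filter left 2 members between the tissues of the mutant (4 before). Leaving out 1 library gave 2236 to 7017 genes and 0 to 4 members in sorted endodermis, 594 to 1876 genes and 0 members in whole root, 4299 to 7880 genes and 0 to 5 members for the difference, 11958 to 13416 genes and 7 to 8 members between the tissues of wild type, and 2905 to 8557 genes and 0 to 7 members between those of the mutant. The most genes in sorted endodermis came without mutant replicate 1.

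Leaving out 1 library gave log2 ranges of -0.26 to 0.23 for MCM7 and -0.52 to 0.99 for CDC45 in sorted endodermis, -0.30 to 0.00028 for ORC1A in whole root, -0.11 to 0.33 for MCM6 and -0.68 to 0.80 for CDC45 in the difference, -0.11 to 0.12 for MCM5 and -0.15 to 0.084 for ORC1A between the tissues of wild type, and -0.40 to 0.31 for CDC6, -0.029 to 0.34 for CDT1A and -1.41 to 0.057 for CDC45 between those of the mutant. Thinning gave 0.020 for ORC1A in whole root, 0.023 for ORC1A in wild type and 0.0078 for CDC6 in the mutant, and limma-voom gave -0.019 for CDC45 in the difference. The cause of these changes of sign was not tested.

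Whether replicate numbers pair the samples could not be settled with 3 libraries per group. Deviations of same-numbered libraries from their group means correlated at 0.0046 to 0.245 in sorted endodermis and -0.047 to 0.272 in whole root. Between the tissues they did so at 0.051 to 0.160 in wild type and -0.108 to -0.050 in the mutant. Libraries of different numbers gave -0.233 to 0.201, -0.307 to 0.173, -0.201 to 0.125 and -0.029 to 0.096 in the same order. With the replicate block, 4684, 1512, 4900, 13564 and 3928 genes were called in the 5 comparisons, and the members called changed in 1, where MCM7 between the tissues of the mutant had an edgeR adjusted p of 0.0606. CDC45 in mutant sorted replicate 3 rested on 20 reads, so its fold is the least precise.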
